A study of Mus musculus with 8 samples.

Results

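Transcripts of the paralogous repressor genes Gfi1 and Gfi1b were followed by TaqMan RT-PCR in bone marrow from wild-type mice and from mice labelled Gfi1-/-. They are 2 of the 12 genes of the RT-PCR panel and were taken by name from the authors' table of raw threshold cycles (Ct, the cycle at which a well's fluorescence crosses the threshold), where they fill 54 of 324 wells. The cells were lineage-negative bone marrow, left after depletion of cells that carry CD11b, Gr1, B220, CD8, CD4, Ter119 or the IL-7 receptor. The 9 preparations comprise 3 from wild-type mice (Gfi1+/+), 3 from Gfi1-/- mice and 3 from Gfi1-/-;Id2+/- mice, which also have only 1 intact copy of Id2. The labels give a C57/Bl6 background and no treatment for the mutant mice; neither the labels nor the methods sheet state the mice's age, the design of the null alleles or how many mice make up a preparation. The wild-type preparations are named only in the RT-PCR tables and their methods sheet, and the mutant ones share genotype and number, but not cell fraction, with whole-marrow array samples, whose probe sets could not be named here. The panel holds no marker of the depleted lineages other than erythroid genes, so the depletion itself could not be checked.

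Gfi1 and Gfi1b are nuclear proteins with a short amino-terminal SNAG domain, which recruits histone demethylase and deacetylase complexes, and carboxy-terminal zinc fingers that bind DNA sites with the core AATC. Gfi1 is known for its role in haematopoietic stem cells, granulocytes and lymphoid cells, and Gfi1b for its role in erythroid and megakaryocytic cells. Each protein is known to repress its own gene and the gene of the other. Id2, a helix-loop-helix protein that lacks a DNA-binding region and blocks E proteins by pairing with them, is encoded by a gene that Gfi1 is known to repress.

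The sequences upstream of both genes are shown because this mutual repression acts on DNA near the start sites. They are the 250 bases before the RefSeq start (build GRCm38.p6, minus strand, written 5′ to 3′), with matches to AATC, on either strand, and to the GATA factor words AGATAA (or ending in G) and TGATAA (or ending in G), on either strand, in capitals. No capital stretch is a match to both. Gfi1b lies at chr2:28609450-28621982 and its upstream window at chr2:28621983-28622232. Gfi1 lies at chr5:107716655-107725805 and the upstream window of its outer start at chr5:107725806-107726055.
Gfi1b: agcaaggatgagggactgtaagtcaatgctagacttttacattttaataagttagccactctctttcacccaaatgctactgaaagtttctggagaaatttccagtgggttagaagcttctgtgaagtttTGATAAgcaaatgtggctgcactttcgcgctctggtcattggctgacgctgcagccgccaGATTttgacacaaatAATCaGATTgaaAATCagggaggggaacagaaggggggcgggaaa
Gfi1: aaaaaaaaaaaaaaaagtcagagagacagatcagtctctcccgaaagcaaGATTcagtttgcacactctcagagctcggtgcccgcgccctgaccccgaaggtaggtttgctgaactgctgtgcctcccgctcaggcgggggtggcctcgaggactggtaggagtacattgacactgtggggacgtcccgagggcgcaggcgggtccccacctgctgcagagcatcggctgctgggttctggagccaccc

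The Gfi1b window holds 4 AATC matches, all between 29 and 56 bases before the start, and 1 TGATAA match 114 bases before it. The Gfi1 window holds 1 AATC match, 196 bases before the start, and no GATA word; the window of a second, inner Gfi1 start holds neither. Of 32851 upstream windows of the same length in the RefSeq table, 69.0% hold at least 1 AATC, 7.04% hold at least 4, and 26.5% hold a GATA word. The longer Gfi1 word TAAATCAC is in 0.514% of them and in none of the windows of Gfi1 and Gfi1b. These matches describe the letters and are not evidence of binding.

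The Gfi1 assay gave a signal in every well of every genotype. Its 27 wells crossed the threshold between 21.9 and 26.5 cycles, far from the last of the 45 cycles run. In wild-type cells the mean Gfi1 Ct was 24.7, 23.57 and 26.47 cycles in preparations 1 to 3. In Gfi1-/- cells it was 22.5, 23.9 and 22.27 cycles, and in Gfi1-/-;Id2+/- cells 24.3, 21.9 and 22.57 cycles. The mean was 22.89 and 22.92 cycles in these mutant cells against 24.91 in wild-type cells, and the groups overlapped, Gfi1-/- preparation 2 and Gfi1-/-;Id2+/- preparation 1 lying above wild-type preparation 2. Wells of the same preparation were tight, with a pooled SD of 0.154 cycles for Gfi1 and 0.1 for Gfi1b; the widest spread of Gfi1 was 0.6 cycles, in wild-type preparation 1. No source used here places the assay relative to the deleted part of the gene, so the signal does not check the deletion.

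**Figure D1:**
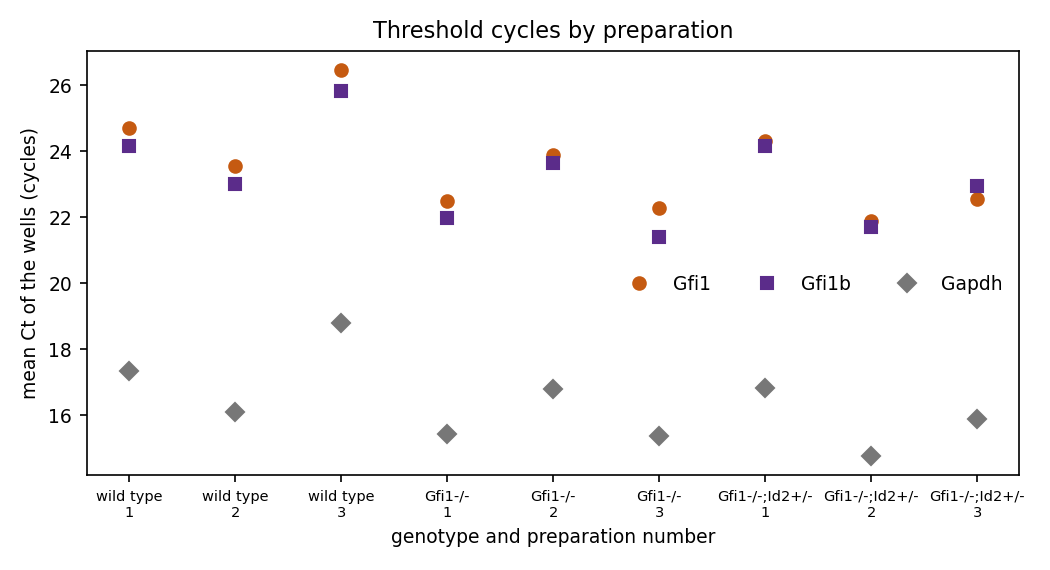
Mean threshold cycle (vertical axis, cycles; a lower value is more transcript) of Gfi1, Gfi1b and the reference Gapdh in each of the 9 preparations (horizontal axis, genotype and preparation number). Gfi1 and Gfi1b lie between 21.4 and 26.47 cycles in all 9 and follow Gapdh up and down.

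Relative to Gapdh, the Gfi1 signal of the mutant cells was close to that of wild-type cells and its mean was the higher one. A gene's level is its mean Ct subtracted from that of Gapdh in the same preparation, where 1 cycle stands for 1 unit of log2. Gfi1 was at -7.35, -7.47 and -7.67 in wild-type cells, at -7.07, -7.10 and -6.90 in Gfi1-/- cells, and at -7.47, -7.13 and -6.70 in Gfi1-/-;Id2+/- cells. All 3 Gfi1-/- values lay above the wild-type ones, and the Gfi1-/-;Id2+/- values overlapped both groups. In bulk cells, fewer cells that express a gene and less RNA per cell cannot be told apart.

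The 6 mutant preparations had a mean Gfi1 level of -7.06 ± 0.26 (SD, n = 6) against -7.49 ± 0.16 (SD, n = 3) in wild-type cells. The difference of 0.43 (SE 0.14) is a ratio of 1.35, and the 18 differences between a mutant and a wild-type preparation ran from -0.12 to 0.97. The exact two-sided permutation test over 84 assignments gave p = 0.0714, and 0.306 after Benjamini-Hochberg adjustment over the 11 target genes. No gene passed in this comparison (0% of 11), none had an unadjusted exact permutation p under 0.05, and limma gave 0 after adjustment and 1 before it. With the preparation number as a block, limma called 1 gene, Hbb-b1. By genotype, Gfi1 differed from wild type by 0.47 (SE 0.11, n = 3 per group) in Gfi1-/- and by 0.39 (SE 0.24) in Gfi1-/-;Id2+/- cells, with exact permutation p of 0.1 and 0.3. The latter difference was 0.19 without Gfi1-/-;Id2+/- preparation 3. With 3 against 3 preparations 0.1 is the smallest p possible, and both comparisons share the wild-type cells. Groups did not overlap in the first of them for 36.4% of the 11 genes, Gfi1 among them, so that its separation is one of 4. Groups did not overlap in the second for 18.2%, without either paralogue, and between all 6 mutant preparations and wild type for 9.09%, again without them.

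**Figure D2:**
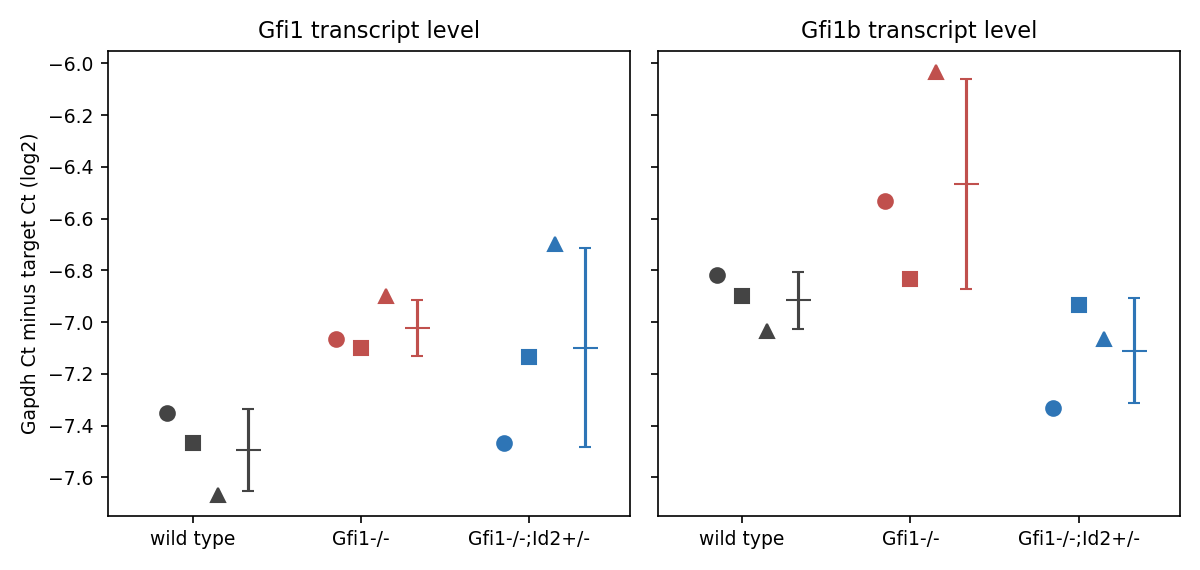
Level of Gfi1 and of Gfi1b (vertical axis, Gapdh Ct minus target Ct on a log2 scale) by genotype. Circles, squares and triangles are preparations 1, 2 and 3, and the bar beside them is the mean with its SD; the Gfi1-/- cells lie above wild type for Gfi1, and above Gfi1-/-;Id2+/- cells for Gfi1b.

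The reference Gapdh had lower mean Ct values in the mutant cells. It crossed at 17.42 ± 1.35 cycles (SD, n = 3) in wild-type cells, 15.87 ± 0.81 in Gfi1-/- cells and 15.82 ± 1.03 in Gfi1-/-;Id2+/- cells, although the methods sheet states equal RNA input. Its Ct was lower in the 6 mutant preparations by 1.57 cycles (SE 0.85), with an exact permutation p of 0.0595, and the groups overlapped. Hbb-b1, the adult beta-globin gene, was at a mean level of -3.09 in wild type, -4.39 in Gfi1-/- and -4.62 in Gfi1-/-;Id2+/- cells relative to Gapdh. The size of the Gfi1 difference therefore changed with the reference: it was 2.01 (SE 0.93) without one, 0.66 (SE 0.19) relative to the mean of the other 9 target genes and 1.84 (SE 0.47) relative to Hbb-b1. The adjusted p from the exact permutation tests was 0.246, 0.196 and 0.0794. These references move the whole panel: 11 of 11 genes had the higher mean in the mutant cells without a reference, with a median of 1.56, and 10 of 10 relative to Hbb-b1, with a median of 1.45. The sign of the Gfi1 difference there is that of every gene measured. Relative to the other 9 target genes, 8 of 11 were higher, with a median of 0.24, and relative to Gapdh 5 of 11, with a median of -0.01. Gfi1 lay above the median of the panel by 0.44 with Gapdh and also without a reference, by 0.42 with the other 9 genes and by 0.40 with Hbb-b1. A single reference moves all genes alike, so this distance can change only with the genes that enter the median or the reference. These values are therefore not separate checks. The overlap by genotype also depended on the reference. Relative to the other 9 target genes, Gfi1-/- overlapped wild type for Gfi1 (0.50, SE 0.33), while 45.5% of the 11 genes separated. Gfi1-/-;Id2+/- separated from wild type for Gfi1 there (0.82, SE 0.15), as did 36.4% of the 11 genes. Relative to Hbb-b1 both separated for Gfi1, as did 60% and 40% of 10 genes. The Gfi1 difference over the 6 was below 0, at -2.64, with the undetermined Gapdh well of wild-type preparation 1 set to cycle 45 in place of being left out. The part of the Gapdh and Hbb-b1 differences in the Gfi1 values was not tested.

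Gfi1b had its highest levels in Gfi1-/- cells. It was at -6.82, -6.90 and -7.03 in wild-type cells, at -6.53, -6.83 and -6.03 in Gfi1-/- cells, and at -7.33, -6.93 and -7.07 in Gfi1-/-;Id2+/- cells. The wild-type preparations were close together, and Gfi1-/- preparation 2 lay among them while preparation 3 stood well above. The exact permutation test across the 3 genotypes gave p = 0.0214, and 0.118 after adjustment over the 11 genes; for Gfi1 it gave 0.168 and 0.326. No gene passed that test after adjustment (0% of 11), although 2, Gfi1b and Id2, had an unadjusted p under 0.05. limma called 0 genes after adjustment. The 2 genes with an unadjusted limma p under 0.05 were Hbb-b1 and Id2. For Gfi1b the limma p was 0.125, or 0.362 after adjustment. With the preparation number as a block limma called 2 genes, Hbb-b1 and Id2. The means spanned 0.64 units for Gfi1b and 0.47 for Gfi1.

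Gfi1b was lower in Gfi1-/-;Id2+/- than in Gfi1-/- cells by 0.64 on the log2 scale (SE 0.26, n = 3 per group), a ratio of 0.640, and every Gfi1-/-;Id2+/- value lay below every Gfi1-/- value. The gap between the groups was 0.1, about the SD of the Gfi1b wells, and the exact two-sided permutation p was 0.1, or 0.55 after adjustment over the 11 genes. Groups did not overlap in this comparison for 18.2% of the 11 genes, Gfi1b and Id2. Without Gfi1-/- preparation 3 the difference was -0.43, and relative to the mean of the other 9 target genes it was -0.25 (SE 0.26), with overlapping groups, as it was relative to Hbb-b1 at -0.41. Against wild type, Gfi1b was higher by 0.45 (SE 0.24) in Gfi1-/- cells, a ratio of 1.37, and differed by -0.19 (SE 0.13) in Gfi1-/-;Id2+/- cells, a ratio of 0.874. The groups overlapped in both, with an exact permutation p of 0.2 in each. Against the wild-type preparation of the same number, Gfi1b differed by 0.28, 0.067 and 1.0 in Gfi1-/- and by -0.52, -0.033 and -0.033 in Gfi1-/-;Id2+/- preparations, 1 sign within each genotype. The values of 0.067 and -0.033 are smaller than the SD of the Gfi1b wells, and no label states that equal numbers belong together. For Gfi1 these differences were 0.28, 0.37 and 0.77 in Gfi1-/- and -0.12, 0.33 and 0.97 in Gfi1-/-;Id2+/- preparations. With 3 such pairs an exact permutation p cannot go below 0.25. The difference was 0.23 without Gfi1-/- preparation 3 in Gfi1-/- cells, and -0.083 without preparation 1 in Gfi1-/-;Id2+/- cells. Over all 6 mutant preparations the Gfi1b difference from wild type was 0.13 (SE 0.20), with an exact permutation p of 0.690; without Gfi1-/- preparation 3 it was -0.02.

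For Gfi1 the mutant genotypes were nearly level. Gfi1-/-;Id2+/- cells differed from Gfi1-/- cells by -0.08 (SE 0.23), with an exact permutation p of 0.8, and by 0.11 without Gfi1-/-;Id2+/- preparation 1. Relative to Gapdh, 10 of the 11 genes had the lower mean in Gfi1-/-;Id2+/- cells, and the median difference over the 11 was -0.41, so that Gfi1b lay below the median and Gfi1 above it.

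**Figure D3:**
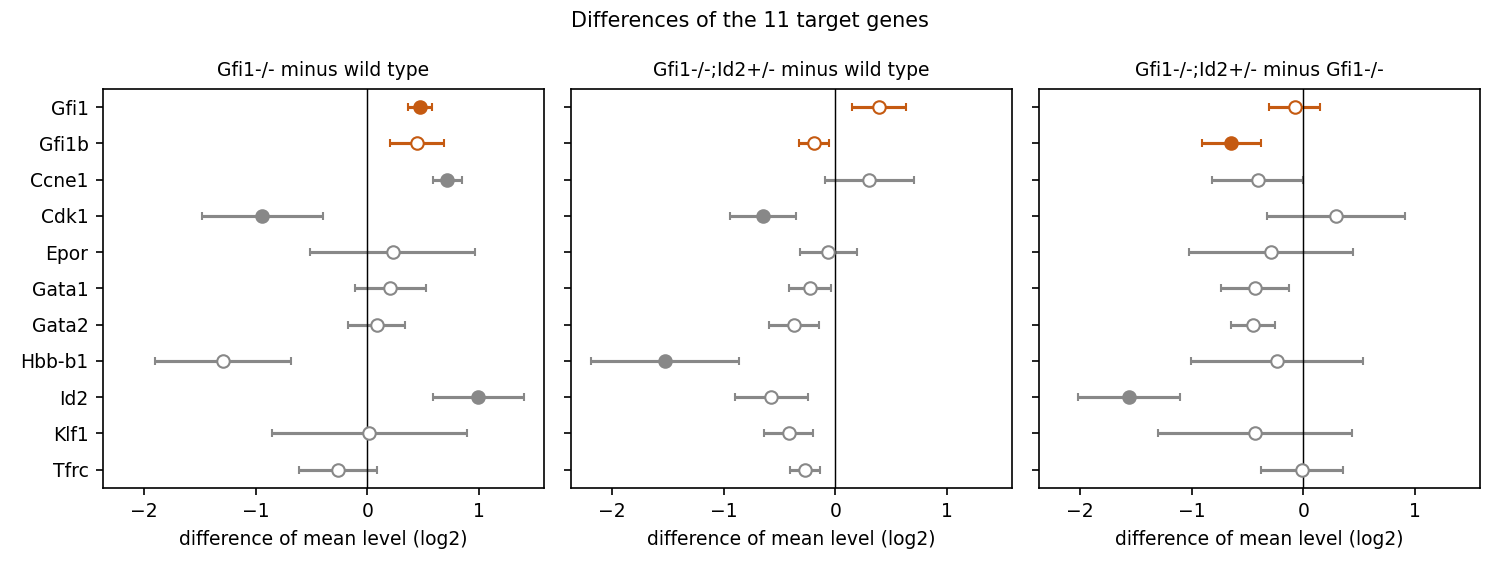
Difference of mean level (horizontal axis, log2, with its SE) for each of the 11 target genes in 3 comparisons, with Gfi1 and Gfi1b in orange. Filled points mark genes whose groups do not overlap; Gfi1 is filled for Gfi1-/- minus wild type (0.47) and Gfi1b for Gfi1-/-;Id2+/- minus Gfi1-/- (-0.64).

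The paralogues were also set against each other, which takes Gapdh out. The Gfi1 Ct minus the Gfi1b Ct was 0.53, 0.57 and 0.63 in wild-type cells, 0.53, 0.27 and 0.87 in Gfi1-/- cells, and 0.13, 0.20 and -0.37 in Gfi1-/-;Id2+/- cells. The Gfi1-/-;Id2+/- preparations lay below all the others, and in the third of them Gfi1b crossed later than Gfi1. The same difference was not taken for other pairs of genes, so whether this separation is particular to the paralogues was not tested. The assays need not amplify equally well, so only the change of this value between genotypes is read. It was lower in Gfi1-/-;Id2+/- than in Gfi1-/- cells by 0.57 (SE 0.25, exact permutation p = 0.1), and the gap between these groups was 0.067. Against wild type it was lower there by 0.59 (SE 0.18, exact permutation p = 0.1), with a gap of 0.33. It differed by -0.02 (SE 0.18, exact permutation p = 0.9) between Gfi1-/- and wild-type cells, where Gfi1 and Gfi1b had each been higher by a like amount. Over the 6 mutant preparations the difference from wild type was -0.31 (SE 0.17), with an exact permutation p of 0.274; it was -0.18 without Gfi1-/-;Id2+/- preparation 3. Across the 3 genotypes the exact permutation p was 0.0429. After adjustment over the 5 comparisons made of this value, 3 of them added after the values were seen, the smallest exact permutation p was 0.167, and none passed. Wild-type preparations had an SD of 0.051, against 0.30 and 0.31 in Gfi1-/- and Gfi1-/-;Id2+/- cells. Under the gene names of the authors' normalized table, described below, the sign turned. Gfi1-/-;Id2+/- cells then differed by 0.36 from wild type and by 0.14 from Gfi1-/- cells.

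**Figure D4:**
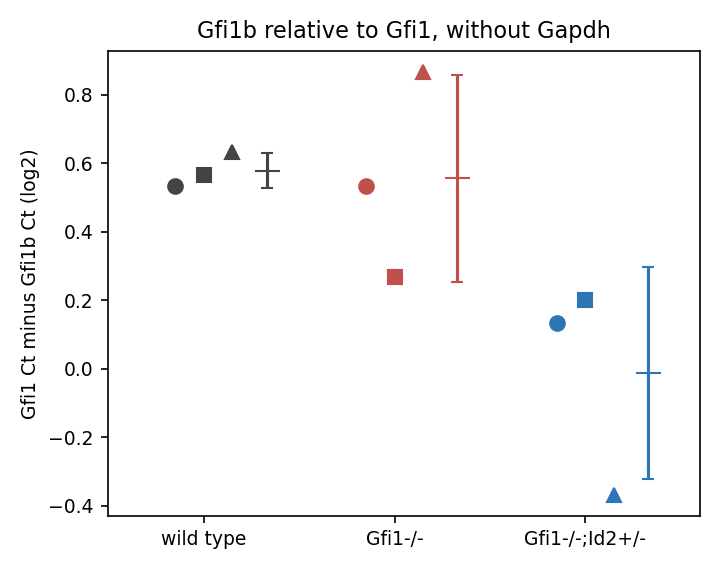
Gfi1 Ct minus Gfi1b Ct (vertical axis, log2; higher means more Gfi1b signal relative to Gfi1) by genotype. Circles, squares and triangles are preparations 1, 2 and 3, and the bar is the mean with its SD; wild-type values lie within 0.53 to 0.63 and the Gfi1-/-;Id2+/- values at or below 0.20.

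Other genes of the panel were ranked by how closely their levels followed each paralogue over the 9 preparations, as a description, since all levels share the Gapdh Ct of their preparation. Gfi1 was most like Ccne1, the cyclin E1 gene (Pearson r = 0.82, Spearman rho = 0.787), then Gfi1b (0.44, rho 0.385) and Id2 (0.42, rho 0.619), and least like Cdk1, a cell cycle kinase gene (-0.42, rho -0.628). Without the 2 preparations farthest from the median Gfi1 level, r was 0.85 with Ccne1, 0.81 with Gfi1b and 0.65 with Id2. Gfi1b was most like Id2 (0.88, rho 0.817), Gata1, the erythroid GATA factor gene (0.82, rho 0.733), and Epor, the erythropoietin receptor gene (0.65, rho 0.633), and least like Cdk1 (-0.04, rho 0). Klf1, an erythroid transcription factor gene, was close to Epor in r (0.64) and above Gata1 and Epor in rho (0.75). Without the 2 preparations farthest from the median Gfi1b level, r was 0.73 for Id2, 0.74 for Gata1, 0.44 for Epor and 0.44 for Klf1. For Gfi1 with Gfi1b it was then 0.07, so their likeness depended on which preparations were left out. After genotype means were taken out, r was 0.75 for Gfi1 with Ccne1. For Gfi1b it was 0.67 with Id2, 0.78 with Gata1, 0.80 with Epor and 0.79 with Klf1. Id2 was then not the gene most like Gfi1b: Tfrc, the transferrin receptor gene, named here after its value was seen, had r = 0.95. With genotype means left in, Tfrc had r = 0.50 with Gfi1b over the 9 preparations (rho 0.367). Without the 2 preparations farthest from the median Gfi1b level its r was -0.21. None of the 11 genes in the panel was lower in the 6 mutant preparations by more than Hbb-b1, which differed by -1.41 relative to Gapdh.

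Which wells are Gfi1 depends on the table. In the authors' normalized table, headed as Ct differences to Gapdh, the raw wells of the same names gave only 1 of 90 values in 10 target columns (tolerance 0.1 cycles). All 90 were matched once the names were put in the order of the detector numbers sorted as text, with the wells named Hbb-b1 as the reference. By that order the column named Gfi1b held the wells named Epor in the raw table, and the column named Epor held the wells named Gfi1. The name Gfi1 falls by the same order on the wells named Klf1. The normalized column named Gfi1 was not used, so Gfi1 is placed by the order alone. In the raw table, the wells named Gapdh had the lowest Ct of all 12 genes in 9 of 9 preparations. The wells named Id2 there differed by -1.57 relative to Gapdh between Gfi1-/-;Id2+/- and Gfi1-/- cells. The wells that the other table calls Id2 differed by 0.52 relative to the wells named Hbb-b1. Relative to Gapdh these same wells, named Cdk1 in the raw table, differed by 0.29. The results above use the raw names.

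Under the other names the reference is the wells named Hbb-b1, and all 11 genes had the higher mean in the 6 mutant preparations, by 0.62 to 1.92 with a median of 1.41. With the reference Ct minus the target Ct taken over the renamed wells, Gfi1 was at -2.67, -1.93 and -2.83 in wild-type, -1.20, -1.93 and -0.37 in Gfi1-/- and -2.07, 0.033 and -2.07 in Gfi1-/-;Id2+/- cells. The mutant mean was higher by 1.21 (SE 0.47), with an exact permutation p of 0.107, which is below the median of the panel by 0.2, where under the raw names Gfi1 lay above it. Gfi1b under the other names was at -4.23, -3.73 and -4.33 in wild-type, -2.73, -3.07 and -1.93 in Gfi1-/- and -3.43, -1.20 and -3.27 in Gfi1-/-;Id2+/- cells, with all 6 mutant values above the wild-type ones. That difference was 1.49 (SE 0.40), with an exact permutation p of 0.0357, or 0.0873 after adjustment. It lay 0.083 above the median of the panel, 27.3% of the 11 genes separated in this comparison, and 6 of 11 had an unadjusted exact permutation p under 0.05. Between the mutant genotypes Gfi1b then differed by -0.06 (SE 0.79) in place of -0.64. The other names change the reference as well as the target wells. Under the raw names Gfi1b differed by -0.41 (SE 0.80) relative to Hbb-b1, with overlapping groups. The part of the names in the change was not tested.

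**Figure D5:**
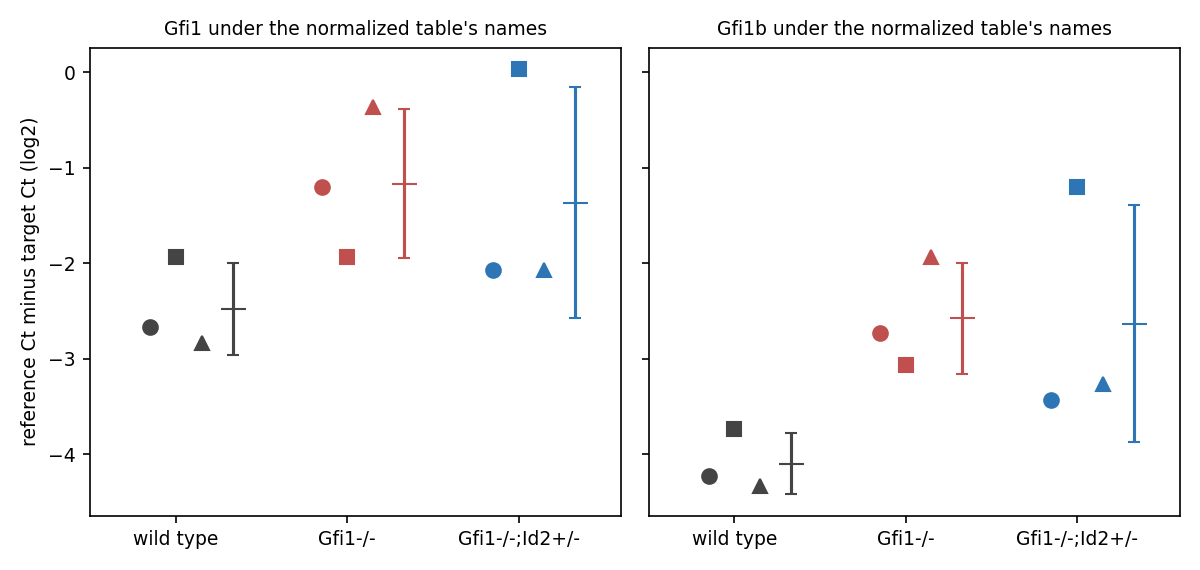
Level of the wells that fall to Gfi1 and Gfi1b by the name order of the authors' normalized table (vertical axis, reference Ct minus target Ct, log2) by genotype. The column named Gfi1 there was not used, so Gfi1 is placed by that order alone. Circles, squares and triangles are preparations 1, 2 and 3, and the bar is the mean with its SD; all 6 mutant values of Gfi1b lie above the wild-type ones, as for 27.3% of the 11 genes, all of which have the higher mean in the mutants, and those of Gfi1 overlap wild type.

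The authors also deposited fold changes under both names. Under Gfi1, the authors' deposited table lists folds of 6.4, 3.8 and 7.3 in the wild-type preparations, of 1.4, 0.9 and 1.0 in the Gfi1-/- ones and of 1.1, 1.0 and 1.0 in the Gfi1-/-;Id2+/- ones. Under Gfi1b, the authors' deposited table lists folds of 18.8, 13.2 and 20.5 in the wild-type preparations, of 6.9, 8.2 and 6.3 in the Gfi1-/- ones and of 10.8, 6.3 and 9.7 in the Gfi1-/-;Id2+/- ones. The 3 wild-type folds of each column of the authors' deposited table lay within 0.15 on the log2 scale of 2 raised to the target Ct minus the reference Ct of the renamed wells, a quantity that is larger where there is less transcript. For Gfi1 the same held for 0 of 3 Gfi1-/- and 1 of 3 Gfi1-/-;Id2+/- folds of the authors' deposited table, and for Gfi1b for 2 of 3 in each mutant genotype; this tolerance was set after the values were seen. Gfi1-/- preparation 2, for example, has a Gfi1 fold of 0.9 in the authors' deposited table where the renamed wells give 3.82. How the mutant folds were made is not stated, and no direction was read from them.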

How the data were processed

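TaqMan RT-PCR of 11 target genes and Gapdh was made by the authors on 500 ng of lineage-negative bone marrow RNA with 45 cycles and 3 wells per gene and preparation, as the deposited methods sheet states. The deposited Ct values are raw threshold cycles; 1 Gapdh well of wild-type preparation 1 is undetermined and was left out. The authors also deposited a table of Ct differences on a log2 scale and a table of fold changes, read as a score because it holds unexplained negative values. A normalized column that also holds legend text, named Gfi1, was not used (1 column), nor were the arrays, whose rows carry no gene names. Threshold cycles limit precision through 3 wells and 3 preparations per genotype; no counts exist from which an interval could be made. The preparations of a genotype have separate names, and nothing says that they came from separate mice, so p-values measure the spread between preparations.

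Wells were averaged per preparation. Genotypes were compared by exact permutation tests (two-sided for differences; F statistic for 3 genotypes), adjusted by Benjamini-Hochberg over 11 genes within each comparison (for Gfi1b relative to Gfi1, over its 5 comparisons), at a threshold of 0.05. SE is that of a difference of means with separate variances. Python 3.11.15, numpy 2.4.6, pandas 2.3.3 and, as an alternative, limma 3.58.1 in R 4.3.3 were used. The tests were run on simulated data with less noise than these preparations and a shift larger than any paralogue difference relative to Gapdh. That run checks the code and not the power at the differences reported here. Wild-type rows were placed by their name and the methods sheet, mutant rows by genotype and number. Gfi1 and Gfi1b, the lists and the tests were chosen with earlier results of these data known. Named genes were Gfi1, Gfi1b and the references. For each paralogue the 3 genes most like it by Pearson r and the 1 least like it were also named. Klf1 and the Id2 difference were added because the gene names turn on them. The correlations of Klf1 with Gfi1b were added after their values were seen. Preparation numbers were checked as pairs through deviations from the genotype means over 11 genes. At equal number these correlated at 0.21 to 0.63 between wild type and Gfi1-/-. They correlated at 0.17 to 0.60 between wild type and Gfi1-/-;Id2+/-, but at -0.50 to 0.57 between the mutant genotypes. Preparations of unequal number were not compared in this way, so no pairing was established. Sequences are from RefSeq tables of build GRCm38.p6, which held 3 starts for both genes.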

Additional observations from a re-analysis of the deposited data

How the results depend on the processing

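No comparison of Gfi1, of Gfi1b or of one relative to the other passed after adjustment, as reported or under any alternative run, so no call could be lost; 78 of 88 planned values that kept all preparations had the direction of the reported one. The other 10 changed sign. Many of the 78 could not have done so. limma and the block keep the difference itself by construction, and the span across the 3 genotypes is never below 0. The undetermined wild-type well enters neither the comparisons between mutant genotypes nor Gfi1b relative to Gfi1. The count is therefore not a measure of stability. With the undetermined Gapdh well set at the last cycle, the mean Gapdh Ct of wild-type preparation 1 rises by construction, and Gfi1 minus wild type turned to -2.64 over the 6 mutant preparations, -2.60 in Gfi1-/- and -2.68 in Gfi1-/-;Id2+/- cells, and Gfi1b to -2.94 over the 6 and -2.62 in Gfi1-/- cells. With another reference, Gfi1b in Gfi1-/-;Id2+/- cells against wild type turned to 1.40 without one, 0.23 with the other 9 target genes and 1.33 with Hbb-b1. Gfi1 between the mutant genotypes turned to 0.32 with the other 9 and 0.16 with Hbb-b1. Under the normalized table's names, an alternative chosen after seeing the data, Gfi1b in Gfi1-/-;Id2+/- cells against wild type turned to 1.47, and Gfi1b relative to Gfi1 to 0.28, 0.21 and 0.36 against wild type (the 6, Gfi1-/- and Gfi1-/-;Id2+/- cells) and to 0.14 between the mutant genotypes. Without 1 preparation, Gfi1b over the 6 ranged from -0.023 to 0.237, Gfi1 between the mutant genotypes from -0.28 to 0.11, and Gfi1b relative to Gfi1 in Gfi1-/- cells against wild type from -0.18 to 0.12. With the preparation number as a replicate block the Gfi1 difference over the 6 stayed at 0.43, as a balanced block must leave it. The block changed no call of either paralogue. With limma across the 11 genes the lower Gfi1b in Gfi1-/-;Id2+/- cells had an adjusted p of 0.279, and 0.575 with the block. With 3 preparations a genotype, comparisons of 3 against 3 cannot reach a permutation p under 0.1.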
